A study of Mus musculus with 9 samples.

Results

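The 68 genes described here are the mouse replication-dependent histone genes, taken as every gene whose symbol begins with Hist1h, Hist2h, Hist3h or Hist4h among the 24054 genes listed in each library. They comprised 6 genes of the linker histone H1 and 18 genes of H2A, 19 of H2B, 12 of H3 and 13 of H4, the core histones. By the RefSeq annotation of GRCm38.p6, 54 lay in the Hist1 cluster on chromosome 13 between 21715711 and 23934913, 10 in the Hist2 cluster on chromosome 3 between 96219885 and 96270192, 3 in the Hist3 cluster on chromosome 11 between 58948911 and 58955192, and 1, Hist4h4, on chromosome 6 between 136803993 and 136804431. RefSeq classed 67 as protein coding and 1, Hist3h2bb-ps, as a transcribed pseudogene.

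Dendritic cells of the spleen take up antigen and present it to T cells, and conventional type 2 dendritic cells (cDC2) carry CD11b. RNA was sequenced from such cells of C57BL/6 mice homozygous for both a Clec9a-Cre allele and a Cre-dependent tdTomato (TOM) reporter at Rosa26, so that cells with a history of Clec9a expression are TOM+. The 3 groups were TOM+ cDC2 and TOM- DC2 sorted from young mice at postnatal day 8 and TOM+ cDC2 sorted from adult mice aged 8 or 9 weeks, with 3 libraries each (n = 3 for every mean and SD here). All cells were sorted as MHCII+ CD11c+ CD11b+ after bead enrichment for CD11c, young spleens were pooled, and every group carried the same alleles, so that no library came from mice without Cre. The library names carry the number 81, 91 or 92 in each young group and 91, 92 or 95 in the adult group. Labelling in these mice depends on a Cre made under the Clec9a gene, and a TOM- cell can also be a cell that escaped recombination. The p-values measure only the spread between these libraries. In bulk RNA, fewer cells of a type and less RNA per cell cannot be told apart.

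Replication-dependent histone genes are transcribed when DNA is copied in S phase, and their products package the new DNA. Most of their mRNAs end in a conserved stem-loop in place of a poly(A) tail, and the stem-loop binding protein (Slbp) carries them through processing, translation and decay. Copies of one family encode nearly the same protein, and their mRNAs are short and share long stretches of sequence. cDNA was primed with oligo-dT here, which selects polyadenylated RNA, so the values are not a measure of the non-polyadenylated form.

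The sequences that decide which reads can be told apart are shown first. These are the first 60 coding bases of 6 H2A genes in the GENCODE transcripts of GRCm38, with capitals where a base differs from Hist1h2ap.
Hist1h2ap: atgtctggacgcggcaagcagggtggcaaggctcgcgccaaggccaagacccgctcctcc
Hist1h2ao: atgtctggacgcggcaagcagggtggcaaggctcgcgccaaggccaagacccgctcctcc
Hist1h2ae: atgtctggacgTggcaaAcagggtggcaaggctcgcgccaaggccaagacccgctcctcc
Hist1h2ab: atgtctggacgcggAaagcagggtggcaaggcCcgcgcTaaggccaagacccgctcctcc
Hist2h2aa1: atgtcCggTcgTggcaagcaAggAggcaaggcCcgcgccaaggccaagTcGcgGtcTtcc
Hist3h2a: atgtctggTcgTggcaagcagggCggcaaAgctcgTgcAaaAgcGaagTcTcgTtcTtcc
Hist1h2ao matched Hist1h2ap over this stretch and over all 393 coding bases, Hist1h2ae differed at 2 of the 60 bases and Hist1h2ab at 3, and the genes of the other clusters differed at 10 (Hist2h2aa1) and 12 (Hist3h2a). The median identity between pairs of coding sequences of equal length was 96.4% for 15 H2A genes, 96.6% for 15 H2B genes, 97.2% for 12 H3 genes and 93.9% for 13 H4 genes. Coding sequence was identical in 5 pairs of genes, Hist1h2ao with Hist1h2ap, Hist2h2aa1 with Hist2h2aa2, Hist1h4m with Hist1h4n, Hist2h3c1 with Hist2h3c2 and Hist1h2bq with Hist1h2br.

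The 3′ end that sets these genes apart is a stem of 6 paired bases around a loop of 4, shown with the loop in capitals for the 2 forms found most often.
Form in 26 genes: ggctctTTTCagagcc
Form in 7 genes: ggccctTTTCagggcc
A stem-loop of this kind followed the stop codon in 44 of the 68 members, counting all its forms, against 0.051% of 141691 transcripts of other genes. Of the 68 gene models, 54 held any bases after the stop codon. In 22 members the annotated transcript went on for at least 100 bases beyond the stem-loop. Hist1h2ap had its stem-loop 38 bases after the stop codon, and its model ended 3 bases after the stem-loop.

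The 150 bases before the annotated start are shown for Hist1h2ae and Hist1h1b, whose young-to-adult differences held in most fits. Capitals mark the box TATAAA, the box CCAAT and the octamer ATTTGCAT, each searched on both strands, so that a reverse match reads TTTATA for the first, ATTGG for the second and ATGCAAAT for the octamer.
Hist1h2ae (chr13:23571221-23571370, minus strand, GRCm38.p6): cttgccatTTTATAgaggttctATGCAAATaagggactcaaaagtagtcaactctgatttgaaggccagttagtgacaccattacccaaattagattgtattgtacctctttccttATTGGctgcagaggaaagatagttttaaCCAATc
Hist1h1b (chr13:21780626-21780775, minus strand, GRCm38.p6): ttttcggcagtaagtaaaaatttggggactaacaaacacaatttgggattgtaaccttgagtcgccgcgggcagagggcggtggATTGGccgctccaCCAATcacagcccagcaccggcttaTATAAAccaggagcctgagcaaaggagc
The share of promoters with each motif was counted over a wider window than the one shown, from 250 bases before to 50 bases after the start, which RefSeq sequence covered for 62 members. CCAAT was found in 85.5% of them against 37.9% of all 27025 promoters, TATAAA in 56.5% against 14.2%, and the octamer in 20.97% against 1.75%. The octamer lay in 7 of 18 H2A and 6 of 16 H2B promoters and in 0 of the H1, H3 and H4 promoters, and CCAAT lay in each of the 6 H1, 18 H2A, 16 H2B and 10 H3 windows but in 3 of 12 for H4. These are matches of letters in a window, not sites of binding. Windows of neighbouring H2A and H2B genes can overlap, and the same match is then counted for both genes. In the stretch of Hist1h2ae above, TTTATA and ATGCAAAT are the same bases as TATAAA and ATTTGCAT in the promoter of its neighbour Hist1h2bg.

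Each library had been counted in 2 ways, first as reads that STAR placed at a unique position, then by expected counts that RSEM apportions among all transcripts a read could come from. The 2 counts parted widely for the histone genes. Summed over the 68 members, RSEM gave 2.17 to 2.29 times the STAR count in the adult libraries and 2.63 to 4.55 times in the young libraries, while over all genes the ratio was 1.09 to 1.13. STAR counted 0 reads in every library for 8 members, among them Hist1h2ap and Hist1h2ao, to which RSEM gave 30312 and 5964 reads over the 9 libraries. RSEM gave 0 to 1 member, Hist1h2ba, a histone of the testis.

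**Figure D1:**
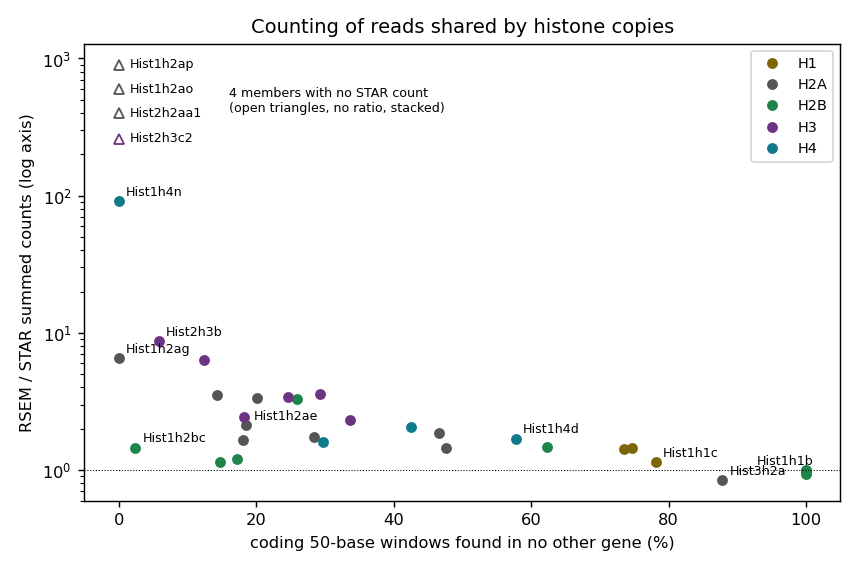
Ratio of RSEM expected counts to STAR unique counts, summed over 9 libraries (log axis), against the share of 50-base coding windows found in no other gene, for the 35 members with an average of at least 10 counts by either method, coloured by family. The 4 members with a ratio between 0.9 and 1.1 lie at the right edge, a few H2B genes on the left lie below 1.5, and 4 members with no STAR count (open triangles, stacked without a ratio) have no unique window.

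The counts parted most, though not in every gene, where little of the coding sequence was unique. Of the 35 members with an average of at least 10 counts by either method, 8 had under 10% of their 50-base windows to themselves, and these held 41602 RSEM but 1901 STAR counts. Of those STAR counts, 1839 belonged to Hist1h2bc, which had a ratio of 1.46 with 2.41% unique windows, and the H2B genes Hist1h2bg (14.8% unique, ratio 1.15) and Hist1h2be (17.2%, 1.20) also had low ratios with few unique windows. The 17 members with 10 to 50% unique windows held 3955 against 1826 counts, a ratio of 2.17, and the 10 members above 50% held 14337 against 13518, a ratio of 1.06. The ratio lay between 0.9 and 1.1 for 4 members, each with 100% unique windows, namely the linker histones Hist1h1b (0.99) and Hist1h1a (0.97) and the H2B genes Hist2h2be (1.00) and Hist2h2bb (0.94). Hist3h2a, with 87.8% unique windows, had the lowest ratio of these 5 smallest, 0.85. At the other end, Hist1h4n had 2 STAR against 183 RSEM counts, and Hist1h2ap, Hist1h2ao, Hist2h2aa1 and Hist2h3c2 had no STAR count. For 9 members, the copies placed at 2 loci in the annotation, STAR counted at most 2 reads over all libraries where RSEM gave between 10 and 30312. A split between identical copies by RSEM rests on no read that tells them apart within the coding sequence, so sums of such copies are given beside single genes.

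The levels, in TPM (RSEM abundance per transcript length, scaled to the same total in every library), were led by Hist1h2ap. RSEM gave this core H2A gene, at 21833024 to 21833475 on chromosome 13, 40.1 to 64.3% of all histone TPM in every library. Hist1h2ao has the same coding sequence, so no coding read measures how the level divides between them. The single values and ranks of both genes are those of the RSEM division. The order of the next genes by mean TPM was Hist1h2ao, Hist3h2a, Hist1h1c, Hist1h4d, Hist1h2bc, Hist2h2aa1 and Hist1h2ae, then Hist1h1e, Hist3h2ba, Hist1h1b and Hist1h4i. Hist1h2ao and Hist3h2a lay next to each other in this order, at 121 and 118 TPM over the 9 libraries, but they differed within the groups. In adult TOM+ cDC2, Hist3h2a had 148 to 170 TPM against 43.7 to 71.4 TPM of Hist1h2ao. In the young libraries numbered 92 Hist1h2ao was the higher of the pair and in those numbered 81 the lower. These values of Hist1h2ao depend on how RSEM divided reads between it and Hist1h2ap. Of the 68 members, 57 had a mean under 10 TPM. H2A genes together held 70.8 to 82.9% of histone TPM. The histones known from the testis were listed near 0, with Hist1h1t at 0 to 0.15 TPM, Hist1h2aa at 0 to 0.51 TPM and Hist1h2ba at 0 TPM, and Hist3h2bb-ps, the pseudogene, at 0 to 1.92 TPM.

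**Figure D2:**
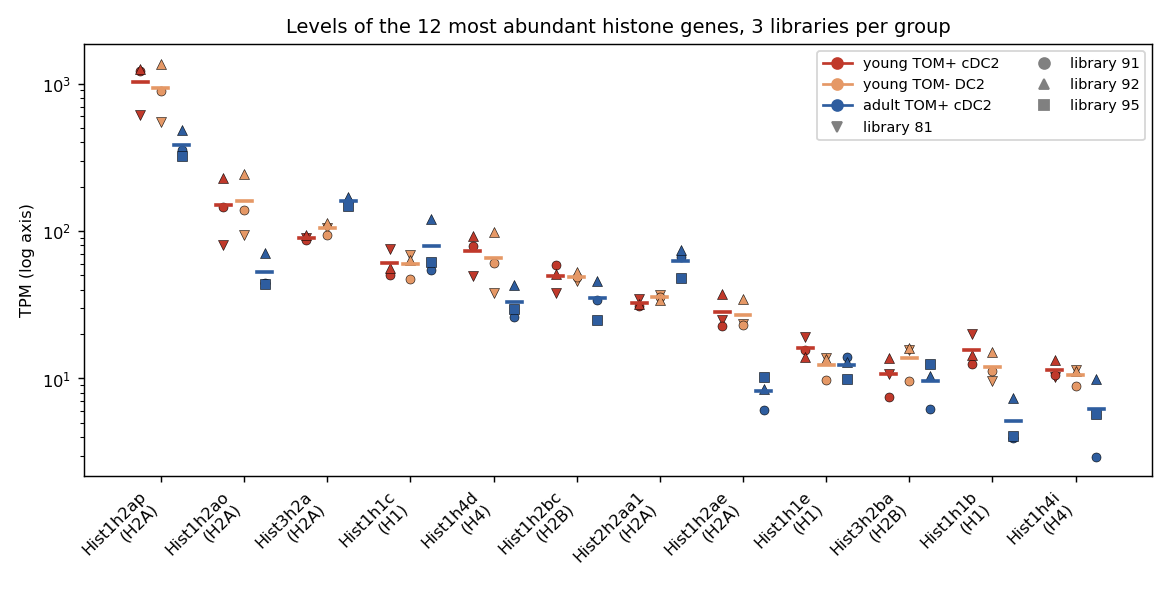
TPM of the 12 histone genes with the highest mean level in each of the 9 libraries (log axis), with 1 point per library, its colour giving the group and its shape the library number, and a line at each group mean. Hist1h2ap, as RSEM divided reads between it and Hist1h2ao, lies far above the others. Hist3h2a and Hist2h2aa1 are highest in the adult libraries, and Hist1h2ae and Hist1h1b are lowest there.

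The summed level of all members depended on which count was summed. In TPM it was 1207, 1888 and 2065 in young TOM+ cDC2 (libraries 81, 91 and 92), 1147, 1513 and 2218 in young TOM- DC2 (81, 91 and 92) and 838, 1174 and 803 in adult TOM+ cDC2 (91, 92 and 95). The lowest library of each young group, 81, lay near the highest adult library, 92. It lay above it in young TOM+ cDC2 (1207 against 1174) and below it in young TOM- DC2 (1147), so young TOM- and adult sums overlapped in TPM. As STAR counts scaled to the reads assigned to genes (CPM), the sum was 117, 117 and 124, then 121, 113 and 130, then 103, 143 and 100, and all 3 groups overlapped. The ratio of young TOM+ to adult TOM+ means was thus 1.83 in TPM and 1.04 in STAR counts, and that of young TOM- to adult TOM+ 1.73 and 1.05. Without Hist1h2ap and Hist1h2ao, which STAR did not count, the TPM ratios were 1.09 and 1.07. Without Hist3h2a, which was higher in adult cells, the STAR ratios were 1.36 and 1.33. Between the young groups the ratio of TOM+ to TOM- was 1.06 in TPM and 0.98 in STAR counts.

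**Figure D3:**
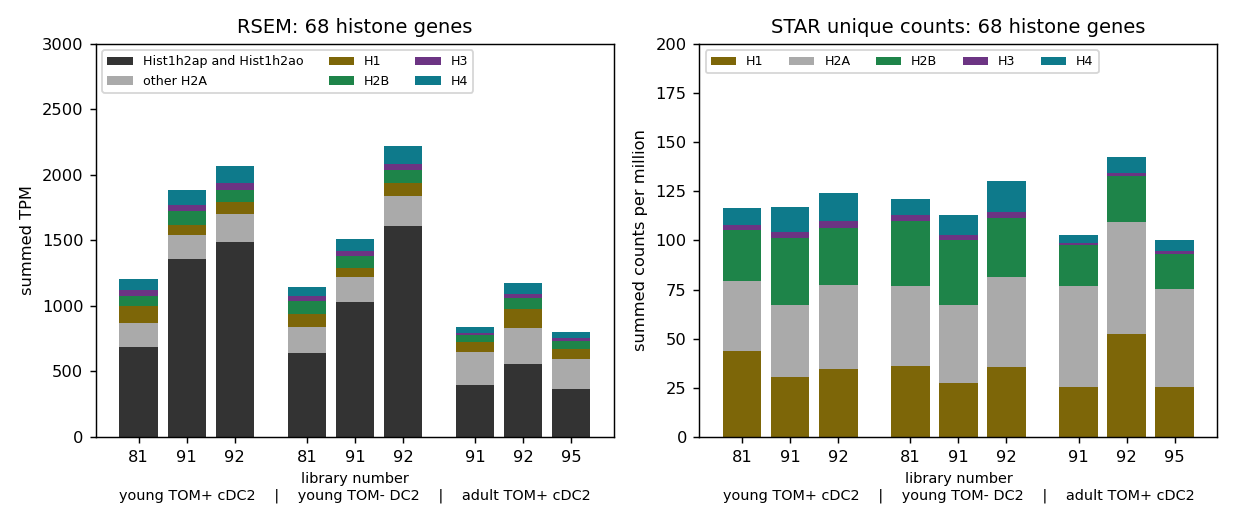
Summed level of the 68 histone genes per library, as TPM (left) and as STAR CPM (right), in bars from 0 stacked by family, with Hist1h2ap and Hist1h2ao set apart on the left. The bars of Hist1h2ap and Hist1h2ao are lowest in the adult libraries. The TPM sums of young TOM- DC2 and adult TOM+ cDC2 overlap, and the STAR sums of the 3 groups overlap.

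The first comparison asked whether young TOM+ cDC2 and young TOM- DC2, which differ in Clec9a expression history, differ in histone genes. None of the 49 members with an average STAR count of at least 1 was higher or lower in young TOM+ cDC2 at a log2 fold change (log2FC) beyond 1 and an edgeR adjusted p (padj) below 0.05, and 0 reached an unadjusted p below 0.05. Over all 14452 genes tested, 0.0208% were called higher and 1.16% lower. By RSEM, again 0 of 66 members were called in either direction, against 0.0206% higher and 1.09% lower of 14532 genes, and 3 members had an unadjusted p below 0.05 on the higher and 1 on the lower side. The median log2FC of the members was 0.07 by STAR, against 0.00 over all genes, and 0.11 against 0.01 by RSEM. The smallest STAR padj was 0.558, for the H2B gene Hist2h2be (log2FC -0.32, SE 0.15). Among the 19 members with an average STAR count of at least 10 the log2FC ranged from -0.34 for Hist3h2ba to 0.86 for Hist2h2bb, both H2B genes.

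The levels of the leading genes overlapped between the young groups. Hist1h2ap had 609, 1215 and 1255 TPM in young TOM+ cDC2 and 547, 888 and 1369 TPM in young TOM- DC2, the library numbered 81 being lowest in both (RSEM log2FC 0.16, SE 0.34, edgeR padj 0.961). Hist1h1b, a linker histone, had 19.96, 12.5 and 14.4 TPM against 9.65, 11.3 and 15.2 TPM (STAR log2FC 0.38, SE 0.26, edgeR padj 0.773). Hist1h1e, another linker histone, was the exception among the 12 leading genes, with 19.2, 15.5 and 13.9 TPM against 13.7, 9.72 and 13.6 TPM, so that the groups did not overlap, but its difference did not pass the test (STAR log2FC 0.35, SE 0.21, edgeR padj 0.710). The young libraries of the same number deviated from their group means together. With that number as a block, RSEM called 1 member higher in young TOM+ cDC2, Hist1h4m, and 1 lower, Hist2h2aa2, and STAR still called 0. Both of these genes are one copy of an identical pair, and RSEM gave Hist1h4m 9 counts in each young TOM+ library and 0 elsewhere. Summed with Hist1h4n, the level was 7.93, 6.87 and 8.48 TPM in young TOM+ cDC2 and 10.5, 5.58 and 7.06 TPM in young TOM- DC2, and the groups overlapped.

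Between young and adult TOM+ cDC2, which share the history of Clec9a expression and differ in age, a subset of the histone genes was higher in young cells. STAR counts called 9 of 49 members higher (18.4%, against 5.96% of all genes tested) and 0 lower (against 6.86%), with 1 member at an unadjusted p below 0.05 on the lower side. RSEM called 11 of 66 members higher (16.7%, against 5.71%) and 2 lower (3.03%, against 7.16%). The median log2FC of the members was 0.84 by STAR, or 0.66 with genes at 0 in one group set to the bound of 3 counts, against 0.05 over all genes, and 0.64 against 0.02 by RSEM. Every gene called by STAR lay in the Hist1 cluster, where 39 members were tested, and the tested members of Hist2 (6), Hist3 (3) and Hist4 (1) gave 0 calls. With so few tested outside Hist1 and 5.96% of all genes called higher, these 0 calls do not set the clusters apart. RSEM called 10 members higher in Hist1, and in Hist2 it called Hist2h3b higher and 2 members lower. The 9 STAR calls rested partly on single libraries, with 4 without the young TOM+ library 92 or without the adult library 95, and 5 without the adult library 91. Hist1h1b and Hist1h2ae were called in all 20 fits of STAR counts or TPM and all 14 fits of RSEM counts.

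Young TOM- DC2 were compared with the same 3 adult libraries, so the 2 age comparisons share their controls and are not independent. STAR called 5 of 49 members higher in young TOM- DC2 (10.2%, against 6.50%) and 0 lower (against 4.78%), with 1 at an unadjusted p below 0.05 on the lower side. RSEM called 9 of 66 higher (13.6%, against 6.27%) and 1 lower (1.52%, against 5.17%). The members' median log2FC was 0.48 by STAR, against 0.07 over all genes, and 0.32 against 0.04 by RSEM. The STAR count fell to 1 without the young TOM- library 92 or without the adult library 95, and to 2 without the adult library 91.

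Among the linker histones, which bind the DNA between nucleosomes, 2 of 5 tested members rose with young age in both comparisons by both counts. Hist1h1b (chromosome 13, 21779832 to 21780625) had 19.96, 12.5 and 14.4 TPM in young TOM+ cDC2, 9.65, 11.3 and 15.2 TPM in young TOM- DC2 and 3.96, 7.42 and 4.05 TPM in adult TOM+ cDC2. Every young library lay above every adult library, and the STAR log2FC was 1.49 (SE 0.29, edgeR padj 0.00134) for young TOM+ and 1.12 (SE 0.29, edgeR padj 0.00994) for young TOM- cells. Hist1h1a (23763668 to 23764412) was low, at 2.85, 0.86 and 2.51 TPM, 2.58, 1.36 and 2.19 TPM and 0, 0.58 and 0.60 TPM, and its STAR log2FC was 2.22 (SE 0.72, edgeR padj 0.0268) and 2.19 (SE 0.72, edgeR padj 0.0318). Both genes have only unique windows, and both counts gave nearly the same fold.

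Hist1h1c (23738807 to 23739531), the linker histone with the highest level, did not follow them. It had 75.1, 50.6 and 56.6 TPM in young TOM+ cDC2, 68.8, 47.5 and 63.5 TPM in young TOM- DC2 and 54.2, 120 and 61.7 TPM in adult TOM+ cDC2, where library 92 stood apart. The STAR log2FC of young against adult TOM+ cells was -0.50 (SE 0.27, edgeR padj 0.168). Hist1h1e, with 14.1, 12.9 and 9.89 TPM in the adult libraries, overlapped between young and adult TOM+ cells. The makeup of linker histone RNA therefore differed in the values: Hist1h1b held 9.63 to 15.9% of H1 TPM in the young libraries and 5.05 to 5.23% in the adult libraries, Hist1h1a held 1.04 to 2.76% and 0 to 0.76%, and Hist1h1c 59.8 to 68.7% and 71.6 to 81.7%. None of these 3 shares overlapped between young and adult libraries.

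**Figure D4:**
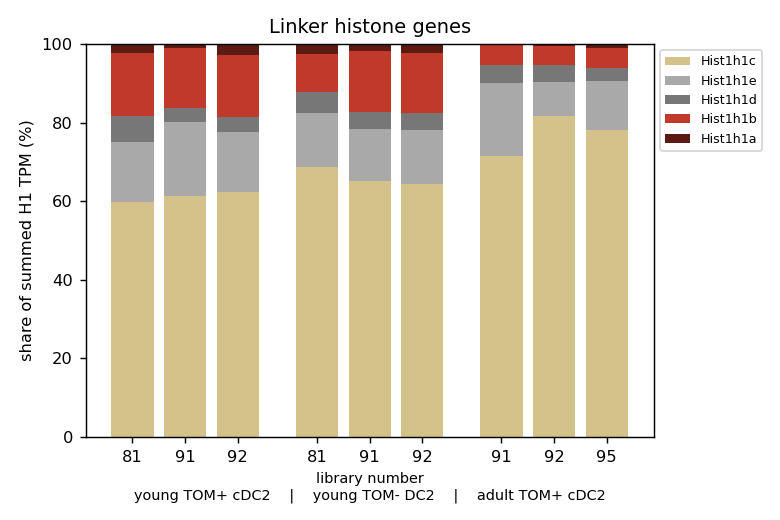
Share of summed linker histone (H1) TPM held by each H1 gene in the 9 libraries, as stacked bars from 0 to 100%; Hist1h1t, at most 0.15 TPM, is not drawn. Hist1h1c holds the largest share in every library, and the share of Hist1h1b lies at 9.63 to 15.9% in young and 5.05 to 5.23% in adult libraries.

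H2A genes moved in both directions. Hist1h2ae (chromosome 13, 23570663 to 23571220) had 25.1, 22.7 and 37.2 TPM in young TOM+ cDC2, 23.5, 22.9 and 34.5 TPM in young TOM- DC2 and 6.11, 8.49 and 10.2 TPM in adult TOM+ cDC2. The young and adult libraries did not overlap, and the STAR log2FC was 1.35 (SE 0.30, edgeR padj 0.00342) and 1.22 (SE 0.30, edgeR padj 0.0075), with RSEM at 1.62 and 1.52. Its count by RSEM was 2.12 times that by STAR, and both counts called it in both age comparisons.

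Hist1h2ab and Hist1h2ak, H2A genes of low level, were also higher in young cells. Hist1h2ab had 6.96, 4.70 and 8.96 TPM, then 4.44, 7.34 and 7.70 TPM, then 2.0, 3.10 and 1.14 TPM in the 3 groups as ordered above, with a STAR log2FC of 1.59 (SE 0.50, edgeR padj 0.0242) and 1.52 (SE 0.51, edgeR padj 0.0334). Hist1h2ak had 1.86, 3.62 and 5.44 TPM, 4.35, 2.17 and 3.67 TPM and 1.06, 1.04 and 0.54 TPM. It was called by both counts for young TOM+ cells (STAR log2FC 1.71, SE 0.59, edgeR padj 0.036) and for young TOM- cells by RSEM (1.66, SE 0.57, edgeR padj 0.0396), while STAR gave 1.62 with an edgeR padj of 0.0505. Young and adult libraries did not overlap in TPM for either gene.

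Hist1h2ap and Hist1h2ao could be compared by RSEM alone. Adult TOM+ cDC2 had 354, 484 and 322 TPM of Hist1h2ap, all below the lowest young library, and its RSEM log2FC was 1.26 (SE 0.35, edgeR padj 0.0126) for young TOM+ and 1.10 (SE 0.35, edgeR padj 0.0272) for young TOM- cells. Hist1h2ao had 80.1, 145 and 229 TPM in young TOM+ cDC2, 93.4, 139 and 245 TPM in young TOM- DC2 and 44.3, 71.4 and 43.7 TPM in adult TOM+ cDC2 (RSEM log2FC 1.37, SE 0.42, edgeR padj 0.0221, and 1.42, SE 0.42, edgeR padj 0.0207). Since the coding sequences are identical, the sum of both is the firmer value, with 689, 1360 and 1485 TPM, 641, 1027 and 1614 TPM and 398, 555 and 366 TPM. The sum was higher in young TOM+ (log2FC 1.28, SE 0.35, edgeR padj 0.0131) and young TOM- cells (1.15, SE 0.35, edgeR padj 0.0243).

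Hist3h2a and the pair Hist2h2aa1 and Hist2h2aa2, H2A genes outside the Hist1 cluster, ran the other way. Hist3h2a (chromosome 11, 58954685 to 58955192) had 89.7, 86.5 and 94.4 TPM in young TOM+ cDC2, 106, 93.5 and 114 TPM in young TOM- DC2 and 158, 170 and 148 TPM in adult TOM+ cDC2. Every adult library lay above every young library, and the differences passed the p threshold but not the fold threshold, with a STAR log2FC of -0.93 (SE 0.10, edgeR padj 1.93e-05) and -0.75 (SE 0.10, edgeR padj 0.000118). It was the only member of which this was true by either count. Hist2h2aa1 (chromosome 3, 96245497 to 96246052), seen by RSEM alone, had 34.4, 31.1 and 32.2 TPM, 36.9, 35.5 and 34.3 TPM and 66.6, 74.3 and 47.9 TPM, and was lower in young TOM+ (log2FC -1.11, SE 0.16, edgeR padj 0.000227) and young TOM- cells (-1.02, SE 0.16, edgeR padj 0.000491). Its identical copy Hist2h2aa2 had 0 RSEM counts in young TOM+ and 40 in adult TOM+ cells, which is at least 20.1-fold lower against a floor of 3 counts over the group (edgeR padj 0.0311), though adult library 92 also had 0 TPM. The sum of both copies was 34.4, 31.1 and 32.2 TPM, 42.7, 38.1 and 34.3 TPM and 70.0, 74.3 and 52.9 TPM, with a log2FC of -1.17 (SE 0.15, edgeR padj 8.3e-05) for young TOM+ cells and of -0.97 (SE 0.15, edgeR padj 0.00037) for young TOM- cells, the latter within the fold threshold. The remaining H2A genes outside Hist1 did not pass the test. Hist2h2ac had 5.66, 4.03 and 7.23 TPM in young TOM+, 3.42, 3.54 and 5.88 TPM in young TOM- and 3.14, 1.99 and 3.03 TPM in adult TOM+ cells, every young library above every adult library (RSEM log2FC 0.89, SE 0.41, edgeR padj 0.105 for young TOM+ cells), and Hist2h2ab stayed at 0 to 1.23 TPM.

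H2B genes gave calls only at low counts. Hist1h2bc (chromosome 13, 23684199 to 23692480), the H2B gene with the highest level, had 37.8, 58.5 and 51.5 TPM, 45.5, 48.7 and 53.1 TPM and 34.0, 46.1 and 25.1 TPM, and did not pass the test (STAR log2FC 0.52, SE 0.22, edgeR padj 0.0746 for young TOM+ against adult TOM+ cells). Hist3h2ba overlapped between all groups, at 6.17 to 16 TPM. Hist1h2bm had 19 STAR counts over the young TOM+ and 1 over the adult libraries, a ratio of 12.9 with a 95% counting interval of 2.05 to 536 (edgeR padj 0.0284). Hist1h2bp had 11 against 0 counts, at least 2.49-fold higher, and Hist1h2bk 12 against 0, at least 2.71-fold higher (edgeR padj 0.0239 and 0.0166). RSEM did not call Hist1h2bp or Hist1h2bk, for which it gave 17 and 18 counts in young TOM+ and 2 and 2 in adult TOM+ cells. For young TOM- against adult TOM+ cells, RSEM called Hist1h2bm (26 against 2 counts, ratio 8.86, interval 2.22 to 77.0, edgeR padj 0.0245), and STAR called 0 H2B genes. Counting intervals and floors cover counting error only.

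H3 and H4 genes, whose products form the core tetramer of the nucleosome, gave few calls. Hist1h3i, the H3 gene with the highest level, had 8.33, 6.56 and 15.1 TPM in young TOM+ cDC2, 5.38, 2.33 and 13.5 TPM in young TOM- DC2 and 4.89, 2.45 and 5.20 TPM in adult TOM+ cDC2, and did not pass the test (RSEM log2FC 1.08, SE 0.57, edgeR padj 0.151 for young against adult TOM+ cells). Hist2h3b, with 5.80% unique windows, was called by RSEM alone, with 78 counts in young TOM+ and 49 in young TOM- against 3 in adult TOM+ cells, ratios of 17.2 (interval 5.68 to 85.4, edgeR padj 0.00167) and 11.1 (3.59 to 55.8, edgeR padj 0.00634). STAR gave 6, 7 and 2 counts for the same groups. Of H4, Hist1h4d (23581568 to 23581969) had 49.2, 79.4 and 92.8 TPM, 37.9, 60.6 and 99.0 TPM and 26.0, 43.1 and 29.7 TPM, and was higher in young TOM+ cells by both counts (STAR log2FC 1.03, SE 0.35, edgeR padj 0.0332), while for young TOM- cells the groups overlapped (0.88, SE 0.35, edgeR padj 0.0686). Hist1h4i had 10.2, 10.5 and 13.4 TPM, 11.4, 8.86 and 11.2 TPM and 2.95, 9.94 and 5.76 TPM. STAR called it for young TOM- cells (log2FC 1.07, SE 0.36, edgeR padj 0.0355) and RSEM did not (0.56, SE 0.37, edgeR padj 0.256). RSEM called Hist1h4m (27 counts in young TOM+ and 0 in adult TOM+ cells, at least 5.97-fold higher, edgeR padj 0.00797), but with its identical copy the level was 3.62, 12.1 and 3.58 TPM in adult TOM+ cells and the log2FC was 0.15 (edgeR padj 0.829).

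The calls of the 2 counts met in part. For young against adult TOM+ cells, 7 genes were called by both, which is 77.8% of the 9 STAR calls and 53.8% of the 13 RSEM calls, and 5 of the 6 genes called by RSEM alone had too few STAR counts to be tested. For young TOM- against adult TOM+ cells, 4 genes were shared, 80% of 5 and 40% of 10, and 3 of the genes called by RSEM alone were not tested by STAR. Among the 49 members tested by both, the log2FC values lay within 0.5 of each other for 40 members in the first of these comparisons (Pearson 0.78, Spearman 0.93), for 38 in the second (0.50 and 0.78) and for 43 between the young groups (0.54 and 0.71). These correlations are across genes that share reads and libraries, and describe the 2 counts only. The low H2B gene Hist1h2bp had opposite signs in the second comparison. When identical copies were summed before testing, RSEM called 9 of 61 members or sums higher and 1 lower in young TOM+ cells. In young TOM- cells it called 8 of 61 higher and 0 lower. The share of all genes called in this fit is not given.

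**Figure D5:**
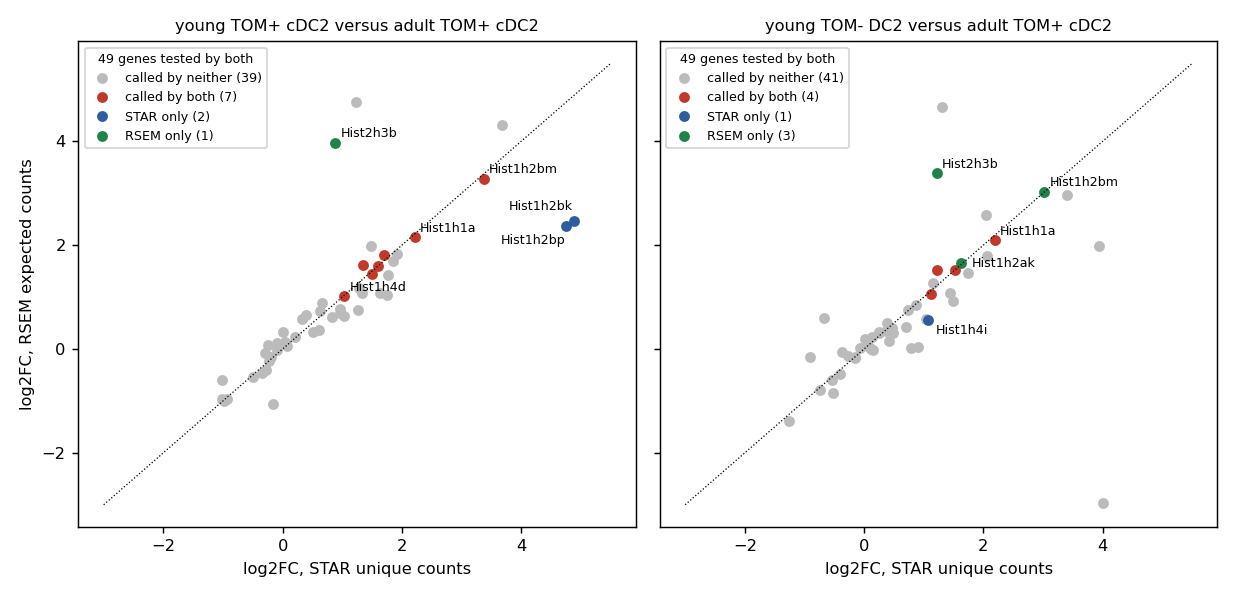
log2FC by RSEM expected counts against log2FC by STAR unique counts for the 49 histone genes tested by both, for young TOM+ (left) and young TOM- cells (right) against adult TOM+ cells, coloured by which count called the gene, with a dotted line of equal values. The 2 values lie within 0.5 for 40 (left) and 38 (right) genes, and Hist2h3b lies far above the line in both panels.

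Genes that work with the histones were read from lists of known members. Of 18 genes of DNA replication and S phase, STAR called 15 higher in young than adult TOM+ cells (median log2FC 1.13, against 0.05 over all genes, of which 5.96% were called higher), 8 higher in young TOM- than adult TOM+ cells (median 0.97, against 0.07 and 6.50%), and 0 between the young groups. Rrm2, a subunit of the reductase that makes deoxynucleotides, had 282, 281 and 293 TPM in young TOM+, 253, 263 and 265 TPM in young TOM- and 81.4, 116 and 77.2 TPM in adult TOM+ cells (log2FC 1.52, SE 0.15, edgeR padj 8.36e-06 for young against adult TOM+ cells). The summed TPM of this list, 2290 to 2467, 2072 to 2224 and 1018 to 1190, did not overlap between young and adult libraries. The young libraries numbered 81, lowest of their groups for Hist1h2ap, were the highest of their groups in this sum, at 2467 and 2224.

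Of 25 histone chaperones, 4 were called higher in young than adult TOM+ cells, against 5.96% of all genes (median log2FC 0.53, against 0.05). These were Chaf1a and Chaf1b, subunits of the factor that deposits histones on copied DNA (log2FC 1.21 and 1.17), Asf1b, which hands H3 and H4 to it (1.40), and Tonsl (1.11). In young TOM- cells Asf1b alone was called, 1 of 25, a share under the 6.50% of all genes (median log2FC 0.40, against 0.07). Asf1b had 129, 129 and 139 TPM in young TOM- against 50.2, 58.3 and 37.7 TPM in adult cells (log2FC 1.29, SE 0.15, edgeR padj 3.39e-05). Of 15 genes of histone pre-mRNA processing, 0 were called in any comparison by edgeR, with a median log2FC of 0.36 and 0.27 in the age comparisons. Slbp had 252, 261 and 256 TPM in young TOM+, 243, 265 and 226 TPM in young TOM- and 137, 161 and 170 TPM in adult TOM+ cells, so that young and adult libraries did not overlap, with a log2FC within the fold threshold (0.54, SE 0.09, edgeR padj 0.00061, and 0.46, SE 0.09, edgeR padj 0.00211).

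Histone variants, most of which are also made outside S phase and from polyadenylated mRNA, gave 3 calls of 11 in each age comparison. All were higher in young cells, against 5.96% and 6.50% of all genes (median log2FC 0.49 against 0.05 and 0.39 against 0.07), and 0 were called between the young groups. H2afy2, a macroH2A, had 7.72, 5.39 and 7.86 TPM, 11.8, 8.13 and 11.4 TPM and 1.57, 2.32 and 2.23 TPM (log2FC 1.59, SE 0.26, edgeR padj 0.000389, and 2.10, SE 0.25, edgeR padj 5.68e-05). Cenpa, the H3 variant of the centromere, was higher in both young groups (1.09 and 1.07). H1fx was called for young TOM+ cells (2.37, SE 0.69, edgeR padj 0.0162) and H1f0, a linker histone variant of resting cells, for young TOM- cells (1.12, SE 0.10, edgeR padj 9.03e-06), with 0.97 (SE 0.10, edgeR padj 1.86e-05) for young TOM+ cells.

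Several measures of the libraries moved with age as well. Reads assigned to genes by STAR came to between 12783252 and 22809401 per library, and reads at several places made up 12.7 to 13.4% of reads in young and 10.4 to 10.8% in adult libraries. Reads outside annotated genes made up 8.84 to 12.8% in young and 15.2 to 17.1% in adult libraries, again without overlap. Of 15 RNAs without a poly(A) tail, 7 could be tested. Rpph1, the RNA of RNase P, had 5.88, 20.2 and 31.0 TPM, 6.08, 25.1 and 25.8 TPM and 2.92, 3.42 and 2.26 TPM and was higher in young TOM+ (log2FC 2.55, SE 0.73, edgeR padj 0.0146) and young TOM- cells (2.59, SE 0.73, edgeR padj 0.0149), with the young libraries numbered 81 lowest, as for Hist1h2ap. Terc, the telomerase RNA, was called lower in young TOM- cells, at 0 STAR counts in every library against 4, 4 and 1 in adult cells. The summed TPM of this list was 20.4, 26.7 and 42.2, then 13.1, 41.6 and 40.4, then 15.95, 11.0 and 10.6. All 11 markers of cDC2 were detected in every library, with summed TPM of 61769 to 66003 in young TOM+, 58785 to 63635 in young TOM- and 92806 to 96112 in adult TOM+ cells. Most of each sum was Cd74 (group means of 44852, 43098 and 63199 TPM) and H2-Ab1 (16830, 16216 and 28827 TPM). Single markers went both ways. STAR called 3 of 11, Cd209a, Clec4a4 and Esam, lower in each young group than in adult cells, against 6.86% and 4.78% of all genes. It called 0 higher. Means of Itgam (147, 147 and 77.9 TPM) and Sirpa (753, 688 and 470 TPM) were higher in the young groups. Summed markers of erythroid cells were 52.7 to 96.7, 52.7 to 1175 and 1.39 to 13.5 TPM, the highest value being that of the young TOM- library 81. Of the 8 erythroid markers, the 4 globin genes, which are near-identical copies as well, had no STAR count in any library. Summed markers of macrophages (134 to 166, 212 to 264 and 91.4 to 134 TPM), B cells (61.0 to 70.7, 70.0 to 80.8 and 41.1 to 54.0 TPM), cDC1 (24.6 to 27.4, 24.0 to 27.4 and 11.4 to 12.3 TPM), monocytes (167 to 177, 183 to 191 and 273 to 298 TPM) and progenitors (151 to 189, 196 to 258 and 290 to 352 TPM) were given in the same order of groups, and the B cell, cDC1, monocyte and progenitor sums did not overlap between young and adult libraries. Those of T cells, plasmacytoid DC, neutrophils and ILC3 stayed below 33 TPM in every library. The part of these measures in the histone values was not tested. Without both young libraries numbered 81, an analysis chosen after seeing the data, STAR called 7 and 4 of 49 members higher in the age comparisons. RSEM, with 65 members tested, called 12 higher with 2 lower and 11 higher with 1 lower. These counts are not set against the share of all genes called in the same fits.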

How the data were processed

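The authors sequenced SMART-seq v4 cDNA from sorted splenic cells in 50-base single-end reads, without strand information. Per the submitters' processing notes and the study's methods, the reads were aligned with STAR to mm10 and quantified with RSEM on RefSeq transcripts. The deposited values used here were the count of uniquely placed reads per gene (STAR, unstranded column), the RSEM expected count, which the authors estimate for reads shared among transcripts, and the RSEM TPM made by the authors. The authors tested counts with DESeq2. Expected counts were rounded here.

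Both counts were tested over all genes with an average of at least 1 count in edgeR 4.0.16 (quasi-likelihood test, TMM, 3 groups in 1 fit, Benjamini-Hochberg adjustment), and a gene was called at a log2FC beyond 1 with an adjusted p below 0.05. Summed levels are TPM or CPM (counts scaled to the reads assigned to genes, without TMM). The test was tested on simulated data. Alternatives used DESeq2 1.42.0 and limma 3.58.1 in R 4.3.3, and tables were made in Python 3.11.15. Depth was 12783252 to 22809401 reads assigned to genes. No pair of libraries of the same group agreed within sampling noise, and pairs across groups were not compared in this way.

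The members and the gene lists were chosen with earlier results of these data known. Named genes are those called in any comparison by either count, the 12 with the highest mean TPM, the highest of each family, the 5 with the largest and the 5 with the smallest ratio of RSEM to STAR counts (average of at least 10 by either count), called genes of the other lists, and Slbp. The number in the library name served as a block in an alternative. Over 14452 genes, same-numbered young libraries deviated from their group means together (r = 0.65, 0.39 and 0.44), so the numbers pair the young libraries, and young and adult libraries of 1 number did not (0.01 to 0.12). What the numbers stand for is not given in the sources used here. Coding sequences and stem-loops came from GENCODE M21 transcripts, and positions and promoters from RefSeq (GRCm38.p6), in which 67 members matched by accession and 1 by synonym.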

Additional observations from a re-analysis of the deposited data

How the results depend on the processing

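No log2FC of a called gene changed sign under any alternative: 436 values kept their call and 131 lost it. Between the young groups, 0 members were called except 1 higher by limma on log2(TPM + 1) or log2(TPM + 0.1), 1 higher and 1 lower by RSEM with the replicate block, and 2 higher by limma over the genes tested by RSEM; leaving out libraries gave 0 to 0. For young against adult TOM+ cells, STAR called 9 of 49 members higher. This became 4 with the replicate block and 15 by limma on log2(TPM + 0.1), each of 49. Under a filter at an average of 10 counts it became 4, but of only 19 members tested. Leaving out a library gave 4 to 9, of 47 to 49 tested, with 0 to 1 lower. RSEM gave 2 lower, 0 by limma and 1 with identical copies summed. With the replicate block RSEM gave 14 higher and 3 lower of 66, Hist3h2a being among the lower. On leaving out a library RSEM gave 7 to 12 higher and 1 to 2 lower, of 63 to 66 tested. For young TOM- against adult TOM+ cells, STAR called 5 of 49 members higher. This became 11 without TMM, 8 by limma on log2(TPM + 1) and 11 on log2(TPM + 0.1), each of 49. It became 3 of 47 with these 2 groups alone and 9 of 66 by RSEM. Leaving out a library gave 1 to 6, of 47 to 49 tested, with 0 to 0 lower. RSEM gave 1 lower, 0 by limma and 0 with copies summed. On leaving out a library RSEM gave 2 to 11 higher and 0 to 1 lower, of 63 to 66 tested. The share of all genes called is given above for the main STAR and RSEM fits and not for these alternatives. The lowest RSEM values were without young library 92 or adult library 95 in the first comparison (7), and in the second without adult library 95 (2), adult library 91 or young library 92 (3) or young library 91 (5). The ratio of summed levels, 1.04 and 1.05, became 1.83 and 1.73 in TPM, and 1.36 and 1.33 without Hist3h2a. The cause was not tested where it is not given by fewer genes or libraries. The block changed no call between the young groups by STAR, and young and adult libraries are not paired by number. The RSEM alternatives other than the plain count, and the fits without both libraries numbered 81, were chosen after seeing the data. Low counts limit the H2B, H3 and H4 genes, and 50-base reads limit every copy without unique sequence.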

Other observations

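The clusters contributed differently to the histone RNA of young and adult cells. Genes of the Hist1 cluster held 83.5 to 91.9% of summed histone TPM in the 6 young libraries and 70.3 to 76.5% in the 3 adult libraries. Genes of the Hist3 cluster, chiefly Hist3h2a, held 5.08 to 10.7% in young and 15.5 to 20.1% in adult libraries, and those of the Hist2 cluster 2.60 to 5.61% and 7.72 to 9.99%. None of these shares overlapped between young and adult libraries. In STAR counts, which leave out Hist1h2ap and Hist1h2ao, the share of Hist1 was 56.9 to 63.8% in young and 42.5 to 54.4% in adult libraries, and that of Hist3 26.0 to 30.5% and 38.4 to 48.9%, again without overlap, while the share of Hist2 overlapped at 8.53 to 12.4% and 6.63 to 8.74%. These shares are descriptions of the libraries and were not tested.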
